A study of Rattus norvegicus with 16 samples.

Results

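The infarct zone of rat hearts that received a soft hydrogel after coronary ligation was compared with the same zone of sham-operated hearts, across all genes. The comparison used 8 of the 16 libraries of the study, 4 labelled MI_soft and 4 labelled Sham, chosen by their labels alone. All are bulk RNA sequencing libraries of tissue labelled infarct zone, which in Sham names the matching region of a heart that was not ligated. MI_soft hearts had the left anterior descending coronary artery tied off and a soft hydrogel, a water-swollen polymer network, injected into the heart muscle, whereas Sham hearts are the controls of that surgery, for which the labels name no gel. The other 8 libraries, used only where stated, are 4 of ligated hearts without gel (MI) and 4 of ligated hearts with a stiff hydrogel (MI_stiff). No group was a sham heart with gel, so the ligation and the gel cannot be told apart in MI_soft against Sham. The extraction label speaks of MI/R, which commonly means that the artery was reopened, and whether it was is not known here. The strain, sex, age, gel composition, time after surgery and hour of tissue collection are not known here. Nothing states that replicate libraries are separate animals, so the p-values measure only how far these samples spread, and that spread may be technical.

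As background, heart muscle cells die when a coronary branch is closed, and macrophages clear the debris. Fibroblasts then become activated and replace the lost muscle with a scar of cross-linked collagen, while the surviving muscle cells switch on stretch-sensitive genes of the fetal ventricle and burn less fatty acid. A circadian clock also runs in heart tissue: the activators Arntl (also called Bmal1) and Clock, or its relative Npas2, drive the repressor genes Per and Cry and the output gene Dbp, which therefore peak at another hour than Arntl itself.

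The table held 17085 genes, of which 11376 had enough counts to be tested. In the quasi-likelihood test of edgeR, with p-values adjusted over all of them by the Benjamini-Hochberg method and a threshold of 0.05, 2965 genes (26.1%) differed between MI_soft and Sham. Of the tested genes 1860 (16.4%) were higher and 1105 (9.71%) lower in MI_soft, so higher genes made up 62.7% of the calls. That majority was smaller with limma-voom (50.8% of 3204 calls) and with library quality weights (51.2% of 6119), and larger with limma on log2(TPM + 0.5) (72.9% of 2301). The libraries of the 2 groups did not overlap for 4655 genes (40.9%). Changes of at least 4-fold were found for 648 higher and 168 lower genes, and the median log2 difference of all tested genes was 0.0073. In the text below "rose" and "fell" mean higher and lower in MI_soft than in Sham at that threshold, levels are CPM (counts scaled to one common library total), differences are log2 values with their fitted standard error (SE), and an adjusted p is from this edgeR test.

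Library totals were 11743002 to 14456186 counts in MI_soft and 13546785 to 14074104 in Sham (exact permutation p = 0.314), and genes with a count numbered 12467 ± 466 and 12294 ± 110 (SD, n = 4 each, exact permutation p = 0.543). Both tests were two-sided, and for them 0.0286 is the smallest possible value. MI_soft 4 stood apart from the other 3 of its group. It had the fewest genes with a count (11785), and its log2 CPM correlated with the rest of MI_soft at as little as 0.855 across genes, which are not independent replicates, against at least 0.972 among Sham libraries. Without it 2778 genes were called, 2407 of them among the 2965, and results that rest on it are given with and without it below. Markers of heart muscle cells (Myh6, Tnnt2, Tnni3, Actc1, Myl2, Ryr2) summed to 20100 to 29680 TPM (a share of transcripts, corrected for gene length) in Sham and 14790 to 19530 in MI_soft, so every library held heart muscle RNA. In bulk tissue, fewer cells of a type and less RNA per cell cannot be told apart.

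**Figure D1:**
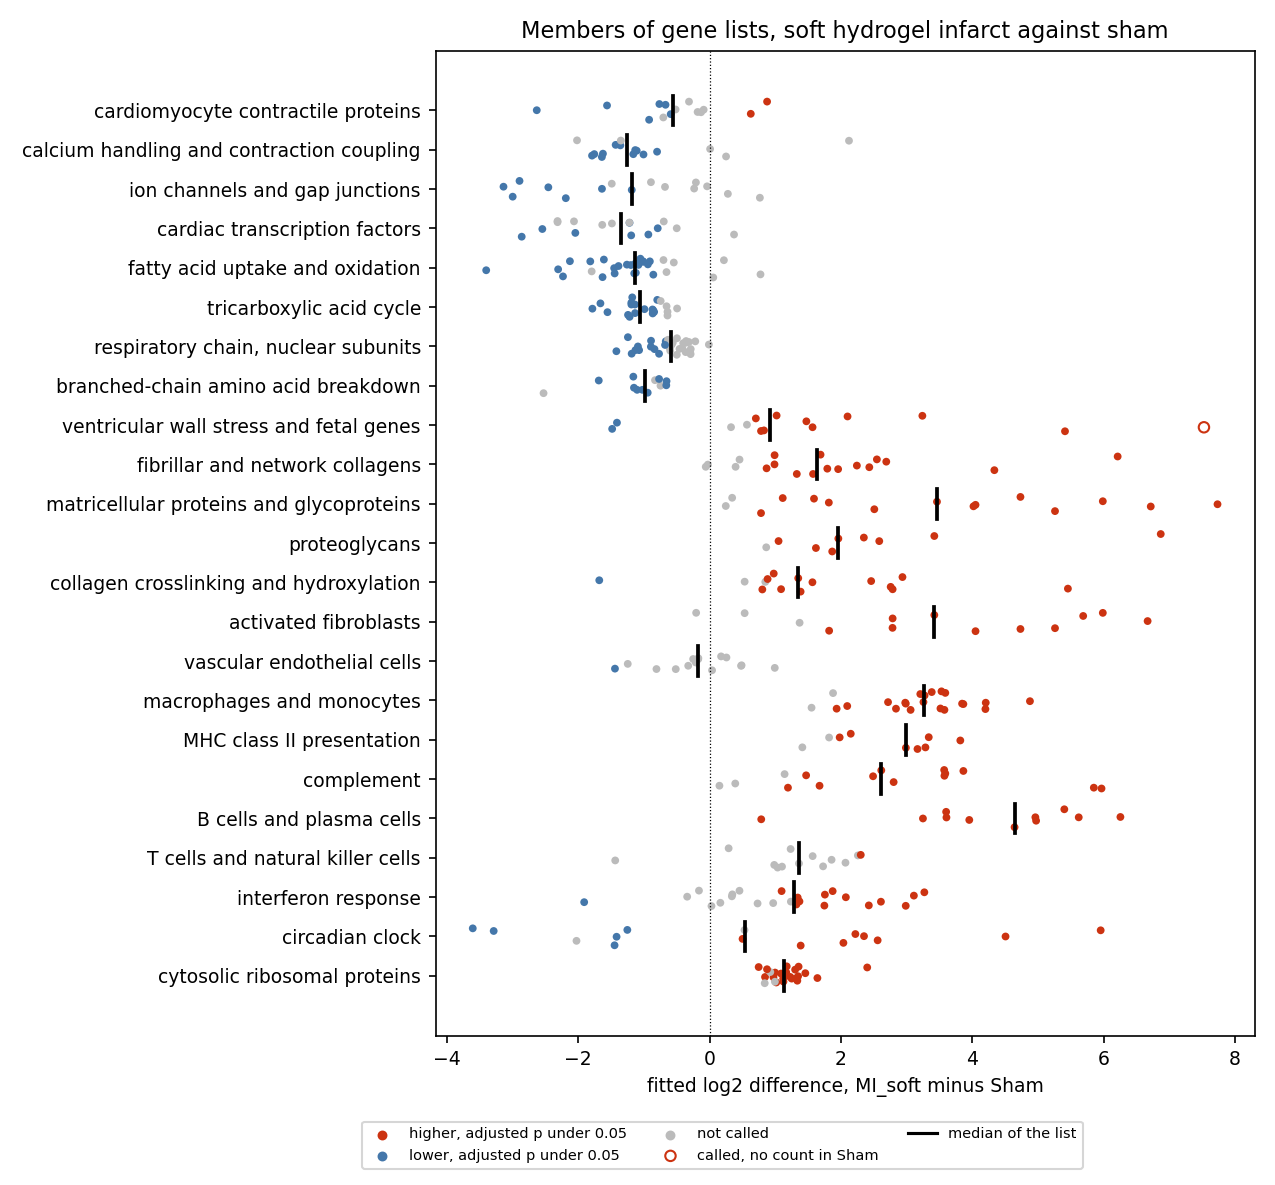
Fitted log2 difference of MI_soft minus Sham (horizontal axis) for each tested member of 23 gene lists, with red points called higher, blue points called lower, grey points not called, an open point for a called gene with no count in Sham and a black bar at the median of the list. Macrophage, B cell and matricellular lists lie to the right (medians 3.26, 4.64 and 3.46), and calcium handling and fatty acid lists to the left (medians -1.26 and -1.13).

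Many heart muscle genes were lower in MI_soft. Of 16 tested genes of calcium handling and contraction coupling 11 fell and 0 rose (median log2 difference -1.26), against 9.71% of all tested genes that fell. Atp2a2, the pump that returns calcium to the sarcoplasmic reticulum, stood at 15320, 16050, 15120 and 13360 CPM in Sham 1 to 4 and at 5613, 4102, 4653 and 5062 CPM in MI_soft 1 to 4. The groups did not overlap, and Atp2a2 fell by 1.62 ± 0.25 (SE, adjusted p = 0.000141). Its inhibitor Pln fell by 1.11 ± 0.21 (adjusted p = 0.00103), from 2332 to 2510 CPM in Sham to 872 to 1454 CPM. Cacna1c, the pore of the L-type calcium channel, fell by 1.75 ± 0.33, and Trdn, which anchors the calcium release complex, fell by 1.79 ± 0.32. Ryr2, the release channel itself, had 715 CPM or more in Sham and 41.5 to 460 CPM in MI_soft (log2 difference -1.64 ± 0.57, adjusted p = 0.0429). Its call rested on every library but MI_soft 3, with adjusted p up to 0.0913 when one of the other 7 was left out.

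Of 15 ion channel and gap junction genes 7 fell and 0 rose (median -1.18). Gja1 encodes connexin 43, the gap junction protein through which ventricular muscle cells conduct to each other. It lay between 804 and 852 CPM in the 4 Sham libraries and at 170, 162, 195 and 73.3 CPM in MI_soft 1 to 4, a fall of 2.45 ± 0.31 (adjusted p = 2.63e-05). Kcnj3, a subunit of the acetylcholine-gated potassium channel, fell by 2.89 ± 0.60. Kcnd3, a channel of the transient outward current, was among the 10 largest falls by the rule used to name genes (log2 difference -3.14 ± 0.995, adjusted p = 0.0275). That call was lost without Sham 1, Sham 2, Sham 4 or MI_soft 2, with adjusted p up to 0.0678. Counted without those same libraries, or without MI_soft 1, between 3 and 4 genes of this list fell in place of 7.

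Of 14 contractile proteins 6 fell and 2 rose (median -0.55). Myh6, the fast adult alpha form of cardiac myosin, stood at 22760, 14380, 24340 and 21220 CPM in Sham and at 4484, 3414, 1423 and 4034 CPM in MI_soft. Each MI_soft library lay below each Sham library, and Myh6 fell by 2.63 ± 0.42 (adjusted p = 0.000202). Mybpc3, which tethers myosin in the thick filament, fell by 0.92 ± 0.21. Myh7, the slow beta myosin that is raised in loaded hearts, stood at 3100, 3210, 4204 and 4152 CPM in Sham and at 6475, 5179, 10450 and 4812 CPM in MI_soft, also without overlap (log2 difference 0.88 ± 0.31, adjusted p = 0.0447). The Myh7 call was lost without any single Sham library, without MI_soft 1 or without MI_soft 3, at log2 differences of 0.58 or more and adjusted p up to 0.164. Leaving out 1 library brought the count of falls in this list to 3 without Sham 2, Sham 3, MI_soft 1, MI_soft 2 or MI_soft 3, and the count of rises to 0 without any one Sham library, MI_soft 1 or MI_soft 3. Actc1, cardiac actin, and Tnni3, the inhibitory troponin, were among the largest falls in TPM, with log2 differences of -0.59 and -0.76 (adjusted p = 0.0472 and 0.0303). MI_soft 4 overlapped Sham for Actc1, with 15640 CPM against 14480 in Sham 4. Both calls were lost in 6 of the 8 refits that left out 1 library (adjusted p up to 0.148 and 0.0927), those without Sham 2, Sham 3, MI_soft 1, MI_soft 2 or MI_soft 3, and without Sham 1 for Actc1 or Sham 4 for Tnni3.

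Of 16 cardiac transcription factors 7 fell and 0 rose (median -1.35), 4 of them without Sham 3, MI_soft 1 or MI_soft 2. Ppargc1a, a coactivator of mitochondrial gene expression, stood at 17.2, 12.0, 10.5 and 19.7 CPM in Sham and at 4.03, 2.59, 3.24 and 0.251 CPM in MI_soft, a fall of 2.55 ± 0.57 (adjusted p = 0.0034). Ppara, a nuclear receptor for fatty acids, fell by 2.04. Nkx2-5, a factor that specifies heart muscle, did not pass the test (log2 difference -0.50, adjusted p = 0.48). Of 16 genes of adrenergic signalling and protein kinase A, which relay the drive to beat harder, 5 fell and 0 rose (3 without Sham 1, Sham 4 or MI_soft 2). These 5 include Pkia, an inhibitor of the kinase (-2.85, adjusted p = 0.00799), and Pde3a, which breaks down cyclic AMP (-2.75, adjusted p = 0.0139). Gpr22, a receptor found in heart muscle, Ky, a muscle protein, and Tecrl were also among the 10 largest falls, at -3.53 ± 0.58, -3.07 ± 0.60 and -2.97 ± 0.46. The Ky call was lost with DESeq2. Adam19 and Mitf, also among the 10 largest falls, were at -2.99 and -2.96.

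Genes that respond to wall stress moved the other way: 10 of 14 rose and 2 fell (median 0.92). Nppa, the atrial natriuretic peptide gene that stretched ventricles switch back on, stood at 57.4, 229, 128 and 29.2 CPM in Sham and at 6518, 2674, 6013 and 3667 CPM in MI_soft. The lowest MI_soft library was thus far above the highest Sham library, and Nppa rose by 5.41 ± 0.58 (adjusted p = 5.44e-06). Nppb, its ventricular relative, rose by 1.57 ± 0.26 (adjusted p = 0.000277), from 206, 195, 199 and 104 CPM to 656, 415, 597 and 418 CPM. The ankyrin repeat protein gene Ankrd23, a sensor of stretch at the sarcomere, rose by 3.24 ± 0.36. Its relative Ankrd2 had no count in any Sham library and 98 counts over MI_soft, which was at least 28.8-fold higher against a floor of 3 counts over the Sham group. The 2 falls were those of Fhl2 (-1.48 ± 0.21), a sarcomere-bound cofactor, and Xirp1 (-1.41), an actin-binding protein of the intercalated disc. Of 12 atrial and conduction genes 2 rose, Nppa and Dkk3, near the 16.4% of all tested genes that rose, and 2 fell. Myl7, the atrial myosin light chain, did not pass (log2 difference 0.33, adjusted p = 0.89).

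**Figure D2:**
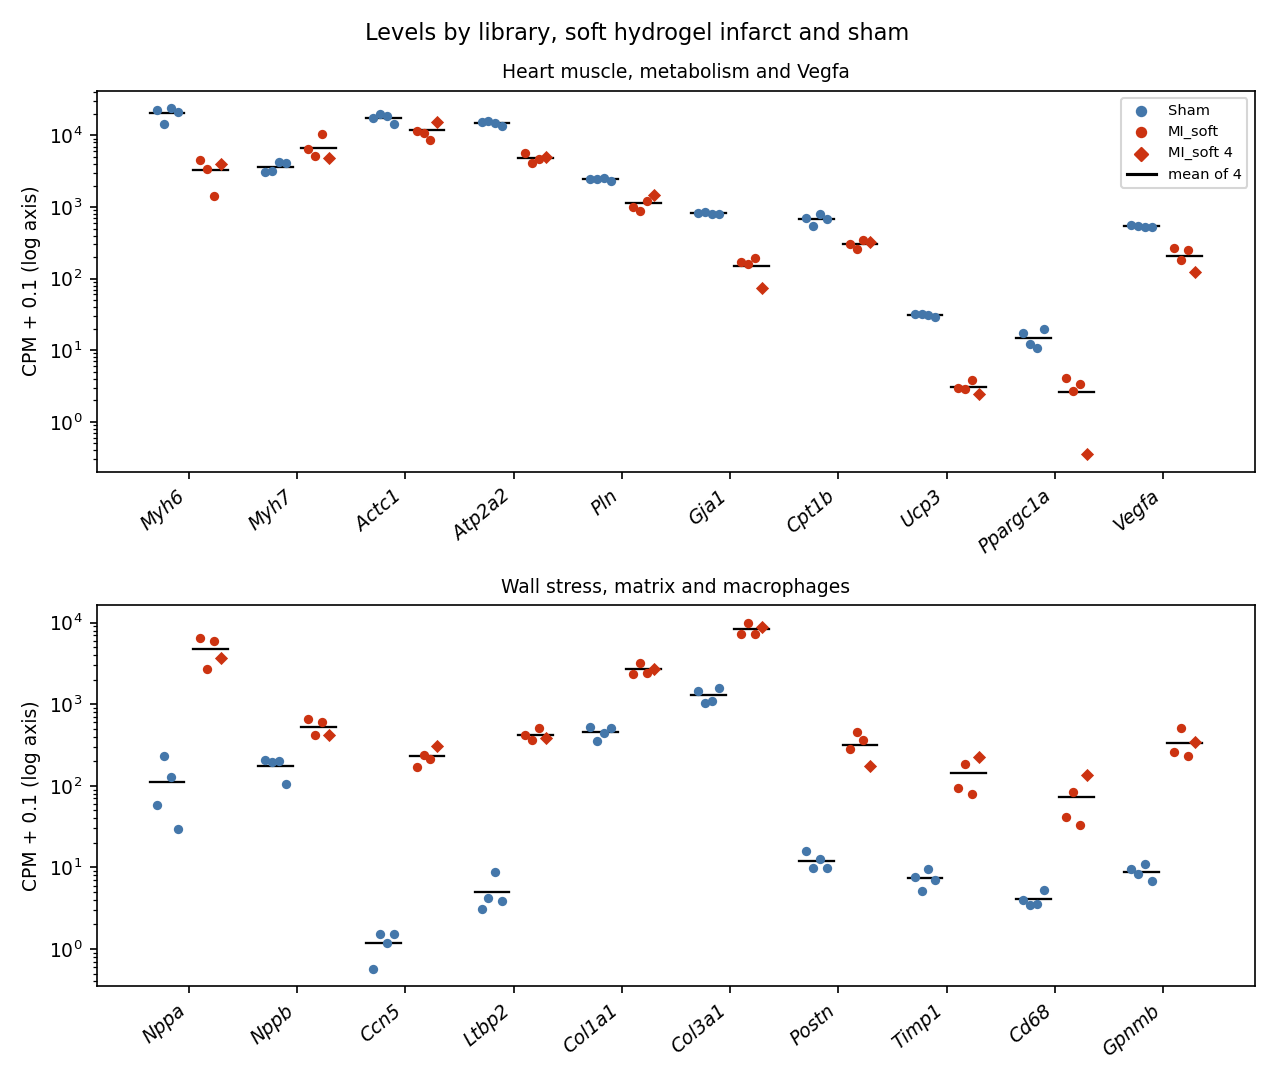
Levels of single genes in the 4 Sham (blue) and 4 MI_soft (red) libraries, as CPM + 0.1 on a log axis, with a point per library, a diamond for MI_soft 4 and a bar at the mean of 4. Nppa, Postn, Ccn5 and Gpnmb lie higher in every MI_soft library than in any Sham library, and Atp2a2, Gja1 and Ucp3 lie lower.

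Many genes of fatty acid oxidation and of the tricarboxylic acid cycle fell. Of 29 genes of fatty acid uptake and oxidation 22 fell and 0 rose (median -1.13), and of 22 genes of the tricarboxylic acid cycle 17 fell and 0 rose (median -1.06). Ucp3, an uncoupling protein of the inner mitochondrial membrane that is induced by fatty acids, stood at 32.4, 31.5, 30.8 and 29.4 CPM in Sham and at 2.84, 2.81, 3.70 and 2.34 CPM in MI_soft. Both groups were tight and far apart, with a fall of 3.40 ± 0.29 (adjusted p = 5.67e-07). Acsl1, which activates long-chain fatty acids, fell by 2.13 ± 0.29 from 1253 ± 57.3 to 287 ± 103 CPM (SD, n = 4 each). Cpt1b, the gate for their entry into mitochondria, fell by 1.15 ± 0.23, and Hadha, an enzyme of the oxidation spiral, fell by 2.30 ± 0.37. Lpl, which frees fatty acids from blood lipids, fell by 1.82 ± 0.37, from at least 3547 CPM in each Sham library to at most 1428 CPM. Cs, the citrate synthase that opens the cycle, fell by 1.66 ± 0.29 (adjusted p = 0.000508).

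Of 12 genes that break down branched-chain amino acids 9 fell and 0 rose (median -0.98), led by Mccc2 (-1.16 ± 0.17), an enzyme of leucine breakdown. Nuclear-encoded subunits of the respiratory chain fell in 12 of 32 cases with 0 rises (median -0.59), among them Ndufs1 of complex I (-1.42). Without MI_soft 4 this count was 21. Of the 13 mitochondrially encoded subunits only ND4L passed (-1.42, adjusted p = 0.0364, lost in 6 of 8 refits without 1 library, namely each but those without Sham 3 or MI_soft 3, at adjusted p up to 0.137). The share of counts from mitochondrially encoded genes was 36.6% ± 4.21 in MI_soft and 41.7% ± 6.33 in Sham (SD, n = 4 each; exact permutation p = 0.229, two-sided). Glycolysis and glucose uptake held 1 rise and 2 falls among 14 tested genes, against 16.4% and 9.71% of all tested genes. Slc2a4, the insulin-responsive glucose transporter, fell by 1.17. Hk2, a hexokinase, was at -1.93 (adjusted p = 0.039) and was not called in any refit without 1 library except that without MI_soft 1 (adjusted p up to 0.0916). Without MI_soft 4 the count of falls in this list was 6, and leaving out Sham 1, Sham 2, Sham 3, Sham 4, MI_soft 2 or MI_soft 3 left 1. Ckm, the muscle creatine kinase, did not pass (-0.81 ± 0.31, adjusted p = 0.0616), with 3183 CPM in MI_soft 4 and 1180 to 1480 CPM in the other 3, and without MI_soft 4 it passed (-1.22, adjusted p = 0.00243).

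Scar matrix genes were higher: in each of the 6 matrix lists below more members rose than fell. Of 18 fibrillar and network collagens 14 rose and 0 fell (median 1.63). Col3a1, the pliable fibrillar collagen of early scar, stood at 1451, 1035, 1084 and 1576 CPM in Sham and at 7262, 9983, 7225 and 8750 CPM in MI_soft, a rise of 2.69 ± 0.24 (adjusted p = 9.41e-07). Col1a1, the main chain of the stiffer type I fibre, stood at 530, 349, 443 and 514 CPM and at 2357, 3243, 2393 and 2735 CPM, a rise of 2.55 ± 0.36 (adjusted p = 6.64e-05). For both genes each MI_soft library was above each Sham library. Col11a1, a minor fibrillar collagen known from cartilage, rose by 6.21 ± 1.01 from at most 0.855 CPM to 10.03 to 63.7 CPM. Col4a1, of the basement membrane, did not pass (0.40, adjusted p = 0.13).

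Matricellular proteins, which bind matrix and signal to cells, had the larger differences, with 13 of 15 rising and 0 falling (median 3.46). Ccn5, a secreted CCN-family protein, had among the smallest adjusted p of all named genes: it stood at 0.466, 1.42, 1.09 and 1.43 CPM in Sham and at 171, 241, 215 and 309 CPM in MI_soft, a rise of 7.73 ± 0.46 (adjusted p = 8.81e-09). Its family member Ccn2, a target of TGF-beta, rose by 4.05 ± 0.47, with MI_soft 4 (360 CPM) below the other 3 MI_soft libraries (1051 to 1585 CPM) and above all Sham libraries (at most 86.7 CPM). Postn, the periostin secreted by activated fibroblasts, stood at 15.7, 9.84, 12.5 and 9.83 CPM in Sham and at 279, 461, 360 and 174 CPM in MI_soft, a rise of 4.73 ± 0.40 (adjusted p = 5.32e-07). Thbs4, a thrombospondin of tendon and stressed heart, rose by 5.99 ± 0.47, and Fn1, fibronectin, rose by 3.46 ± 0.28. Tnn, tenascin-N, had no count in Sham and 14.8 to 49.6 CPM in MI_soft, at least 420-fold higher against the same floor.

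Of 11 genes of elastic fibres and microfibrils 10 rose and 0 fell (median 2.33). Ltbp2, a microfibril protein of the latent TGF-beta binding family, stood at 3.03, 4.07, 8.70 and 3.72 CPM in Sham and at 416, 364, 509 and 381 CPM in MI_soft, a rise of 6.41 ± 0.38 (adjusted p = 8.81e-09). Mfap5, another microfibril protein, rose by 3.85. Proteoglycans rose in 8 of 9 cases (median 1.96), including Fmod, fibromodulin, which steers collagen fibre thickness (3.42). Mgp, a matrix protein that blocks calcification, had one of the 5 largest rises in TPM, from a mean of 513 to 7980 TPM, with a log2 difference of 3.88 ± 0.36.

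Enzymes that finish collagen rose in 12 of 15 cases, with 1 fall (median 1.35). The fall, of the lysyl oxidase relative Loxl4 (-1.68, adjusted p = 0.0327), was lost without Sham 1, Sham 2, Sham 4, MI_soft 1, MI_soft 2 or MI_soft 4 (adjusted p up to 0.0847), which leaves 0 falls. Pcolce, which speeds removal of the procollagen tail, rose by 2.79, and Fkbp10, a chaperone of collagen crosslinking, rose by 2.76. Lox, the classical lysyl oxidase, did not pass (0.53, adjusted p = 0.63). Of 19 proteases and inhibitors 11 rose and 0 fell (median 2.00). Mmp12, the elastase made by macrophages, had 0 counts in all Sham libraries and 71.1, 265, 67.1 and 65.7 CPM in MI_soft, at least 1910-fold higher. Mmp3, stromelysin, also had no Sham count and was at least 67.9-fold higher. Mmp2, a gelatinase of fibroblasts, rose by 2.31 ± 0.24, and Timp1, an inhibitor of these enzymes, rose by 4.31 ± 0.42 from 5.11 to 9.47 CPM to 78.6 to 225 CPM. Ctsk, the collagen-cleaving cathepsin K, rose by 3.48 ± 0.30.

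Genes of activated fibroblasts rose in 10 of 13 cases and fell in 0 (median 3.42), and those of resting fibroblasts rose in 9 of 14 and fell in 1 (median 0.96). The activated list shares 7 genes with the matrix lists above. Sfrp2, a secreted Wnt inhibitor, rose by 5.69 ± 0.51, from 0.555 to 3.49 CPM to 95.9 to 141 CPM, and Cilp2 rose by 6.67 ± 1.299. The Cilp2 call was lost with limma-voom. Pi16, a marker of adventitial fibroblasts, stood at 13.2, 12.2, 10.3 and 7.77 CPM in Sham and at 156, 209, 139 and 288 CPM in MI_soft, a rise of 4.19 ± 0.33 (adjusted p = 2.92e-07). The fall was that of Abca8a (-1.98), a lipid transporter, and Gsn, an abundant actin-severing protein, did not pass (0.02, adjusted p = 0.93). Markers of fibroblasts (Pdgfra, Dcn, Col1a1, Tcf21, Dpt) summed to 462 to 567 TPM in Sham and 1208 to 2086 TPM in MI_soft, the lowest in MI_soft 4. Their part in the matrix results was not tested.

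Of 20 genes of TGF-beta signalling, the main profibrotic pathway, 10 rose and 1 fell (median 0.51), with 6 rises without Sham 2 or Sham 3. The ligand Tgfb3 rose by 2.67 ± 0.28, from 28.2 to 38.5 CPM to 165 to 236 CPM, while its receptor Tgfbr2 did not pass (-0.78, adjusted p = 0.36). Smad3, which carries the signal to the nucleus, was lower (-1.503, adjusted p = 0.0334), a call lost without any single Sham library, MI_soft 2 or MI_soft 4 (adjusted p up to 0.0832). Of 11 genes of the insulin-like growth factor axis 6 rose and 0 fell. Among the carriers of the factor Igfbp6 rose by 3.87 ± 0.43 and Igfbp7 by 2.20, while Igfbp2 (1.33, adjusted p = 0.443) and Igfbp5 (0.09) did not pass. Of 13 Wnt inhibitors and Frizzled receptors 5 rose and 1 fell. Integrins and focal adhesion proteins, which couple cells to matrix, were mixed, with 8 of 23 higher and 5 lower. The collagen-binding subunit gene Itga11 rose by 4.03 and Itga10 by 5.07, as did the fibronectin receptor subunit gene Itga8 by 3.44. Lower were Vcl, vinculin (-0.83, adjusted p = 0.011), and Itga7, the laminin receptor of muscle (-0.74, adjusted p = 0.0383), the latter only in the full set, without MI_soft 4 and without Sham 4. Leaving out single libraries other than MI_soft 3 brought the 5 falls to between 1 and 3. Of 17 targets of YAP and TAZ, coactivators that respond to stiffness and load, 6 rose and 2 fell, with 3 rises without Sham 1, Sham 4 or MI_soft 1, and 0 or 1 falls without any single library except MI_soft 3.

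Vessel genes went in several directions. Of 15 vascular endothelial genes 1 fell and 0 rose (median -0.17), against 9.71% of all tested genes that fell and 16.4% that rose. The fall was that of Cdh5, the adhesion protein of endothelial junctions (-1.44 ± 0.40, adjusted p = 0.014). Of 4 vascular endothelial markers 2 had values, Cdh5 among them. They summed to 68.0 to 108.7 TPM in Sham and 45.9 to 64.2 TPM in MI_soft. The whole list summed to 718 to 1054 TPM in Sham and 798 to 1261 TPM in MI_soft. Among 18 angiogenic and hypoxia genes 4 rose and 7 fell (median -0.67). Vegfa, the main growth factor for vessels, stood at 559, 537, 532 and 531 CPM in Sham and at 264, 184, 248 and 125 CPM in MI_soft, a fall of 1.40 ± 0.28 (adjusted p = 0.00165). Angpt1, which steadies vessels, fell by 3.86 ± 1.09 (adjusted p = 0.0148), the largest fall by the naming rule, from 8.77 to 16.8 CPM to 1.42, 0.076, 1.65 and 0.167 CPM. Its antagonist Angpt2 rose by 2.21 ± 0.27, from 4.28 to 5.58 CPM to 17.9 to 29.1 CPM. The peptide gene Apln fell by 2.84 ± 0.70, and its receptor gene Aplnr fell by 2.42 ± 0.27 (adjusted p = 8.17e-06), from 147 to 192 CPM to 23.4 to 36.7 CPM.

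Of 7 lymphatic endothelial genes 4 rose and 1 fell (median 1.14). Lyve1, a hyaluronan receptor of lymphatic vessels and some resident macrophages, stood at 10.6 to 15.2 CPM in Sham and at 102, 101, 67.4 and 91.9 CPM in MI_soft, a rise of 2.84 ± 0.24 (adjusted p = 5.2e-07). Ccl21, a lymphatic chemokine for dendritic and T cells, rose by 2.73 ± 0.40. The fall was that of Prox1 (-2.86, adjusted p = 0.0425), a lymphatic transcription factor that heart muscle also expresses, and it held in the full set and without MI_soft 3 only (adjusted p up to 0.133). Smooth muscle and pericyte genes rose in 5 of 14 cases and fell in 1 (median 0.26). The fall, of the pericyte gene Rgs5 (-1.06, adjusted p = 0.022), was lost without Sham 1, Sham 4, MI_soft 2 or MI_soft 4 (adjusted p up to 0.0774), and the list then had 0 falls, or 1 of another gene without MI_soft 4. Markers of pericytes summed to 76.1 to 173 TPM in Sham and 45.1 to 137 TPM in MI_soft. Tagln, an actin-binding protein of smooth muscle and myofibroblasts, rose by 3.32 ± 0.43, and Actg2, a smooth muscle actin, rose by 4.19 ± 0.56.

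Of 22 tested genes of macrophages and monocytes 20 rose and 0 fell (median 3.26). Cd68, a lysosomal protein of macrophages, stood at 3.89, 3.41, 3.42 and 5.23 CPM in Sham and at 41.2, 84.1, 33.2 and 137 CPM in MI_soft, a rise of 4.205 ± 0.57 (adjusted p = 4.98e-05). Lyz2, lysozyme of myeloid cells, rose by 4.88 ± 0.53, and Cd14, a coreceptor for endotoxin, rose by 3.06 ± 0.37. Mrc1, the mannose receptor of resident macrophages, rose by 2.10 ± 0.47, but MI_soft 4 (9.78 CPM) lay within the Sham range (9.01 to 15.5 CPM) while the other 3 were at 65.2 to 70.8 CPM. Macrophage markers summed to 35.8 to 58.8 TPM in Sham and to 343 to 1003 TPM in MI_soft, the highest in MI_soft 4. Without MI_soft 4 the Cd68, Lyz2 and Mrc1 calls remained, with Mrc1 at 2.45 (adjusted p = 3.96e-05).

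Genes of lipid-laden macrophages rose in 7 of 14 cases, with 1 fall, Lpl, which heart muscle also expresses. Gpnmb, a glycoprotein of such cells, stood at 9.56, 8.14, 10.9 and 6.66 CPM in Sham and at 258, 514, 234 and 342 CPM in MI_soft, a rise of 5.26 ± 0.52 (adjusted p = 2.16e-06). Spp1, osteopontin, rose by 6.72 ± 0.65 from at most 1.71 CPM to 83.0, 198, 161 and 40.2 CPM, and Trem2, a lipid receptor, rose by 3.69 ± 0.87. Of 11 genes of macrophage fusion and osteoclasts 6 rose and 0 fell. Dcstamp and Ocstamp, the membrane proteins needed for fusion, and Atp6v0d2, a proton pump subunit of osteoclasts, had no Sham count and were at least 22.6-fold, 30.5-fold and 85-fold higher. The 2 fusion genes were nevertheless low in MI_soft, with 73 and 99 counts over the 4 libraries. Lysosomal genes rose in 13 of 23 cases with 0 falls.

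Complement genes rose in 12 of 15 cases with 0 falls (median 2.61). C4b, the fourth component, stood at 24.3, 14.6, 15.99 and 9.19 CPM in Sham and at 577, 664, 488 and 2285 CPM in MI_soft, highest in MI_soft 4, a rise of 5.97 (adjusted p = 1.5e-06). Genes of MHC class II, which present antigen to helper T cells, rose in 7 of 9 cases with 0 falls (median 2.99), with Cd74, the invariant chain, at 1.98 ± 0.48 and RT1-Da at 2.99 ± 0.47. Of 24 chemokines and cytokines 13 rose and 1 fell. Ccl19, which draws T cells and dendritic cells, rose by 5.70 from 0.777 to 1.51 CPM to 29.5, 51.4, 25.1 and 123 CPM. Cxcl13, which draws B cells, rose by 4.64 ± 0.67. The fall was that of Cxcl12 (-0.97), a chemokine of stromal cells.

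All 11 tested genes of B cells and plasma cells rose (median 4.64). Jchain, which links secreted antibodies, stood at 0.389, 2.84, 1.48 and 1.90 CPM in Sham and at 259, 31.4, 157 and 53.3 CPM in MI_soft, a rise of 6.25 ± 1.098 (adjusted p = 0.000493). Mzb1, an antibody-folding protein of plasma cells, rose by 5.40 ± 1.14, with MI_soft 2 (5.48 CPM) below the other 3 (27.4 to 31.5 CPM). Ighe, an immunoglobulin heavy chain gene, stood at 6.45, 6.34, 2.95 and 7.53 CPM in Sham and at 4273, 166, 731 and 2309 CPM in MI_soft. It rose by 8.33 ± 1.42 (adjusted p = 0.000385), and its lowest MI_soft library was far above all Sham libraries. Heavy chain genes resemble each other, and how reads were divided among them is not known here. Ms4a1, which encodes CD20 of B cells, had 190 counts over MI_soft and 3 over Sham, a ratio of 57.8 with a counting interval of 19.5 to 283 (95%, counting error only). The count of B cell rises was 6 without Sham 1, Sham 3 or Sham 4, and 7 without MI_soft 1.

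Of 13 genes of T cells and natural killer cells 1 rose, against 16.4% of all tested genes. It was Cd4 (2.30, adjusted p = 0.0113), a coreceptor of helper T cells that rat macrophages carry too. Cd3d, Cd3e, Cd3g and Cd2 did not pass, although their summed TPM was 12.2 to 28.2 in MI_soft and 3.12 to 7.70 in Sham. None of 5 neutrophil and 7 mast cell genes passed, apart from 2 mast cell genes that rose without MI_soft 3. Their medians were positive, at 1.69 and 1.40.

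**Figure D3:**
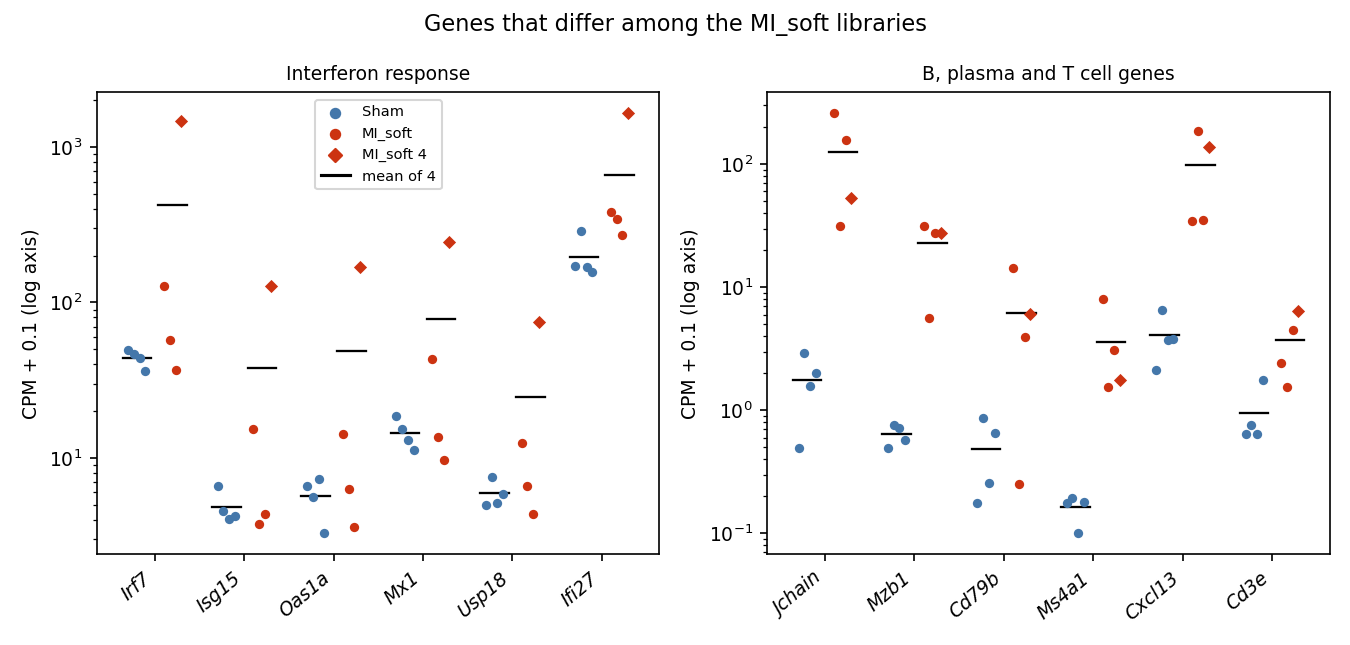
Interferon genes (left) and lymphocyte genes (right) by library, as CPM + 0.1 on a log axis, with Sham in blue, MI_soft in red, MI_soft 4 as a diamond and a bar at the mean of 4. Jchain lies higher in all 4 MI_soft libraries than in Sham, whereas Irf7 is far above Sham only in MI_soft 4 (1471 CPM against 36.7 to 128 CPM in the other 3).

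The interferon response rested on MI_soft 4. Of 24 interferon-stimulated genes 13 rose and 1 fell (median 1.28). But only 4 had no overlap between the groups, against 40.9% of all tested genes, and without MI_soft 4 the number of rises was 3. Irf7, the factor that amplifies type I interferon, stood at 49.4, 46.3, 43.9 and 35.9 CPM in Sham and at 128, 57.0, 36.7 and 1471 CPM in MI_soft. With all libraries it rose by 3.27 ± 0.82 (adjusted p = 0.00717), and without MI_soft 4 it did not pass (0.77, adjusted p = 0.0968). Isg15, a ubiquitin-like antiviral protein, was at 128 CPM in MI_soft 4, at 3.65 to 15.3 CPM in the other 3 and at 3.96 to 6.45 CPM in Sham (2.99, adjusted p = 0.0149). Oas1a, a sensor of double-stranded RNA, was at 170 CPM in MI_soft 4 and at 3.50 to 14.04 CPM in the other 3. Without MI_soft 4 their adjusted p was 0.328 and 0.442. MI_soft 1 had the second highest value of all 3 genes. Rsad2, viperin, went the other way in every library, from 13.2 to 25.96 CPM in Sham to 9.04, 2.66, 5.75 and 1.76 CPM, a fall of 1.91 ± 0.49 (adjusted p = 0.00786). Leaving out a single Sham library left 6 to 8 of the 13 rises.

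Clock genes moved in both directions. Of 15 tested clock genes 8 rose and 5 fell (median 0.53), and 13 had no overlap between the groups, against 40.9% of all tested genes. To show the promoter elements by which clock factors are known to act on each other, stretches of 4 promoters with a match are given here from RefSeq (rat assembly GRCr8), 5′ to 3′ on the strand of the gene, with the match in capitals. The elements searched on both strands were the E-box CACGTG, bound by Arntl with Clock or Npas2, the core TAGGTCA of the element bound by Nr1d1, and the D-box TTATGTAA, bound by Dbp, Tef and Nfil3, none of which contains another.
Arntl: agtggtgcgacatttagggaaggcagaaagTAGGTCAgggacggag
Ciart: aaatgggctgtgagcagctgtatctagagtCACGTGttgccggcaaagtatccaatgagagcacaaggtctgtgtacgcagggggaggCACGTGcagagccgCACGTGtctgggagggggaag
Tef: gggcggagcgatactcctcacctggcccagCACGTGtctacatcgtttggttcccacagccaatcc
Per2: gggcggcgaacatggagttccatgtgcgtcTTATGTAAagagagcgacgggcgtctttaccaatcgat
They lie at chr1:176766282-176766327 (plus strand), chr2:186112247-186112369 (minus), chr7:115206599-115206664 (plus) and chr9:99497148-99497215 (minus), upstream of the gene start. The Arntl match lies 16 bases before the start, and the 3 E-boxes of Ciart lie 93, 35 and 21 bases before it. In windows of 250 bases before to 50 after the start, the E-box was in 3 of 8 genes that rose (Nr1d1, Tef and Ciart), 0 of 3 that fell, 1 of 2 that did not pass (Bhlhe40) and 6.42% of all 33469 windows. The TAGGTCA core was in 1 of 3 that fell (Arntl), 0 of 8 that rose and 2.63% of all windows, and the D-box was in 1 of 8 that rose (Per2), 0 of 3 that fell and 0.893% of all. Cry1 had no window. A gene was counted if any of its windows matched, and Clock and Nr1d1 had 2 windows each. The shares of all are per window, so the units differ. A match is a description of letters and does not show binding.

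The activators fell. Arntl stood at 49.8, 55.2, 52.8 and 48.3 CPM in Sham and at 5.16, 7.15, 6.48 and 2.26 CPM in MI_soft, a fall of 3.29 ± 0.40 (adjusted p = 1.49e-05). Npas2 stood at 33.7, 33.4, 31.4 and 34.0 CPM and at 2.47, 1.75, 5.22 and 1.34 CPM, a fall of 3.60 ± 0.43 (adjusted p = 1.4e-05). Both were among the 10 largest falls of all genes by the naming rule, with little spread in Sham. Clock was scarce in all libraries, at most 3.89 CPM, and did not pass (-2.03, adjusted p = 0.158). Cry1 and Nfil3, both repressors of the clock, fell by 1.42 ± 0.39 and 1.25 ± 0.32.

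Most other repressors and the output genes rose. Dbp, an output transcription factor, stood at 9.87, 10.2, 10.2 and 9.43 CPM in Sham and at 185, 175, 145 and 397 CPM in MI_soft, a rise of 4.51 ± 0.68 (adjusted p = 0.000136). Per1 and Per2, which shut off the activators, rose by 2.35 ± 0.31 and 2.56 ± 0.35, and Per2 stood at 11.8 to 13.99 CPM in Sham and at 88.5, 85.1, 88.6 and 37.0 CPM in MI_soft. Ciart, another repressor, rose by 5.95 from at most 0.159 CPM to 4.69 to 8.53 CPM. Nr1d1, a known repressor of Arntl, rose by 2.22 ± 0.46, and Tef, a relative of Dbp, by 1.39 ± 0.22. Per3 (2.04, adjusted p = 0.0213) and Cry2 (0.50, adjusted p = 0.0213) also passed. Those 2 calls were lost without Sham 1 or Sham 2 (adjusted p up to 0.0624 and 0.0724), that of Per3 also without Sham 3 or MI_soft 2, and that of Cry2 also without Sham 4 or MI_soft 1. Across the other ligated hearts, Arntl stood at 10.3, 12.1, 9.76 and 13.5 CPM in MI 1 to 4 and at 54.4, 48.2, 11.8 and 40.6 CPM in MI_stiff 1 to 4. MI was thus between MI_soft and Sham, and 3 of the 4 MI_stiff libraries were near Sham. The hour of tissue collection is not known for any group, and its part in these clock differences was not tested.

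**Figure D4:**
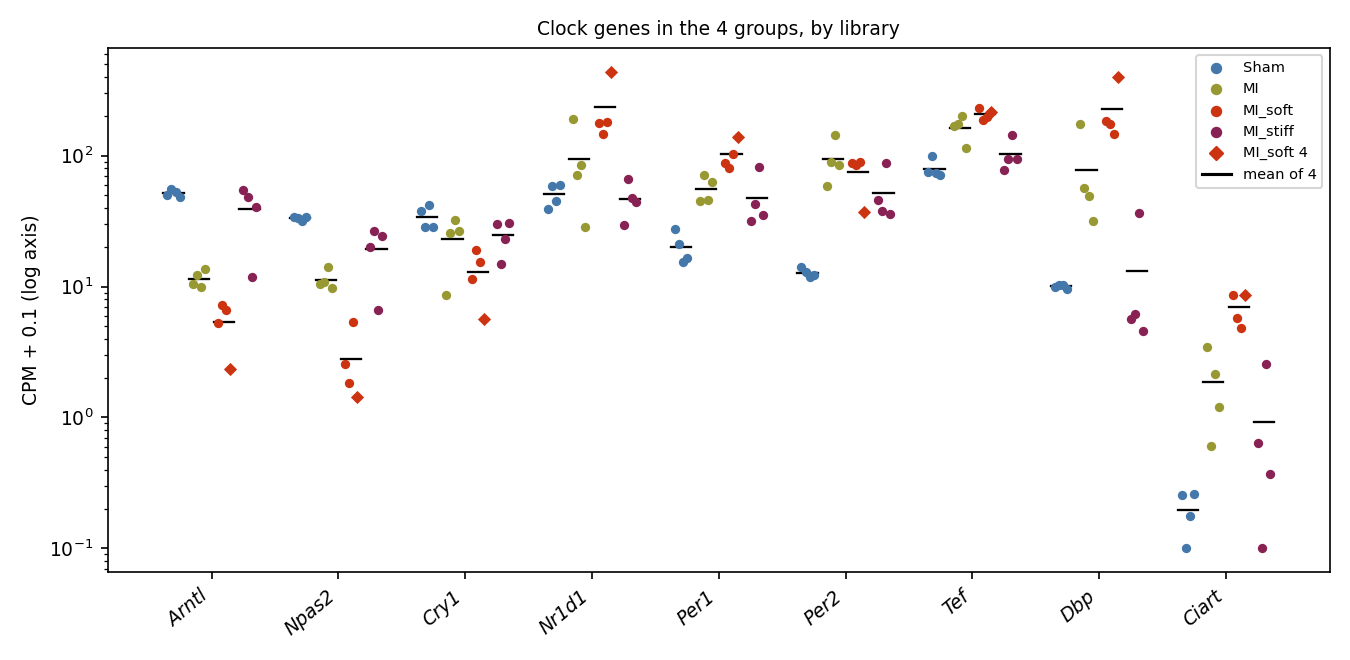
Clock genes in all 16 libraries, as CPM + 0.1 on a log axis, with a point per library coloured by group, a diamond for MI_soft 4 and a bar at the mean of 4. Arntl and Npas2 are lowest and Dbp is high in MI_soft, while Arntl in 3 of 4 MI_stiff libraries (40.6 to 54.4 CPM) is near its Sham level (48.3 to 55.2 CPM).

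Genes of the ribosome and of protein folding were higher. Of 25 cytosolic ribosomal proteins 22 rose and 0 fell (median 1.14), and this count was 22 with each of the other 2 scalings and without the mitochondrially encoded genes. Rpl3, of the large subunit, stood at 118, 141, 121 and 115 CPM in Sham and at 506, 611, 518 and 975 CPM in MI_soft, a rise of 2.40 ± 0.28 (adjusted p = 1.28e-05). Rps29 (1.51) and Rps27 (1.33) were among the 5 largest rises in TPM. Rps29 is uncertain, because LOC108352650 had identical counts in every library, and ribosomal protein genes have many near-identical copies among which reads may be split. Of 18 genes of the integrated and endoplasmic reticulum stress responses 12 rose and 0 fell (median 1.06), with Creld2 (1.59 ± 0.28) and Sdf2l1 (1.87), both induced when proteins misfold, among them. Hspa5, the main chaperone of that compartment, did not pass (-0.20, adjusted p = 0.6). Mt2A, a metallothionein that binds zinc, rose by 5.06 ± 0.61. Of 18 antioxidant enzyme genes 4 rose and 3 fell (median 0.08), against 16.4% and 9.71% of all tested genes. Among them Sod3 rose by 1.33, while the mitochondrial enzyme gene Sod2 and the catalase gene Cat fell by 1.23 and 1.52.

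Iron handling genes also moved: 7 of 15 rose and 1 fell. Slc11a1, which exports iron from the macrophage phagosome, rose by 4.46 ± 0.71, Cp, the ferroxidase ceruloplasmin, rose by 3.17 ± 0.23, and Hmox1, which breaks down heme, rose by 2.19. Tfrc, the receptor that takes up transferrin-bound iron, fell by 2.85 ± 0.76, from 53.3 to 94.4 CPM in Sham to 17.3, 12.9, 11.8 and 0 CPM in MI_soft. Of 20 cell cycle genes 3 rose and 0 fell, a share of rises near the 16.4% of all tested genes. Of these 3, Plk1, a mitotic kinase, was called in each refit without 1 library (1.77, adjusted p = 0.0121). The other 2, Mcm2 and Mcm6, were lost in 6 and 3 of 8 refits (both without Sham 3, Sham 4 or MI_soft 2, and Mcm2 also without Sham 1, MI_soft 1 or MI_soft 4), at adjusted p up to 0.114 and 0.083. Mki67 did not pass. Of 18 immediate early genes 6 rose and 0 fell (median 0.86).

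Several genes known from other tissues were higher in MI_soft, some in all 4 libraries and others mainly in some of them. Of 10 adipocyte genes 6 rose and 1 fell (median 4.98, or 4.85 with genes at 0 in Sham set to their lower bound). Adipoq, the fat cell hormone adiponectin, stood at 0, 23.0, 0.793 and 15.96 CPM in MI_soft 1 to 4, against 0.0792 CPM in Sham 4 and 0 in the other Sham libraries. Cidec, a lipid droplet protein, stood at 0.224, 11.8, 0.198 and 13.7 CPM with no Sham count. MI_soft 2 and MI_soft 4 thus carried nearly all of this signal. Markers of adipocytes summed to 28.1 and 15.98 TPM in those libraries, to 0.16 and 0.82 TPM in MI_soft 1 and 3, and to at most 0.05 TPM in Sham. Scd, a desaturase and one of the 10 largest rises (6.38 ± 1.26), was also highest in those libraries, at 4.33, 70.2, 1.19 and 23.6 CPM, as was Agt, angiotensinogen (5.43 ± 1.12), at 0.598, 26.5, 1.26 and 21.6 CPM. The part of adipocyte RNA in the Scd and Agt results was not tested. Without MI_soft 4 Agt was at 5.04 (adjusted p = 0.004). The Scd, Agt and Adipoq calls were lost with limma-voom, with or without library quality weights. That of Adipoq was also lost with limma on log2(TPM + 0.5).

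Of 9 skeletal muscle genes 6 rose and 0 fell, or 3 without Sham 1 or Sham 4. Myl1, a myosin light chain of fast skeletal and embryonic muscle, rose by 5.89 ± 0.79 in all 4 libraries (36.2, 78.9, 35.0 and 42.1 CPM against at most 1.09 CPM). Tnnt3, the fast skeletal troponin, was highest in MI_soft 2, at 41.4 CPM against 5.90 to 11.0 CPM in the other 3, and the markers Mylpf, Tnni2 and Casq1 summed to 186 TPM there, to 22.7 to 28.8 TPM in the other 3 and to 11.5 to 27.8 TPM in Sham. Of these 3 markers only Casq1 was tested, and it did not pass (0.25, adjusted p = 0.729). Of 9 genes of epicardium and mesothelium, the outer lining of the heart, 6 rose and 0 fell, including Msln, mesothelin (5.47 ± 0.88). The mesothelium markers Upk3b, Msln, Wt1 and Lrrn4, however, summed to 20.43, 9.41, 10.75 and 4 TPM in MI_soft 1 to 4. In Sham they summed to 5.29 to 7.43 TPM, so MI_soft 4 was below every Sham library. Of 10 cartilage and bone genes 6 rose and 0 fell, including Chad, a cartilage matrix protein (4.56 ± 0.87), and Acan, aggrecan, whose 479 counts in MI_soft against 3 in Sham gave a ratio of 146 with a counting interval of 49.6 to 709 (95%). Acan was highest in MI_soft 3 (24.5 CPM against 1.42 to 4.03 CPM). Schwann cell and nerve genes rose in 3 of 13 cases, against 16.4% of all tested genes. Among them was Pmp22, a myelin protein that other cells also express, at 2.53 ± 0.22. Trh, the thyrotropin-releasing hormone gene, known from the brain and also found in heart, stood at 0.389, 0.473, 0.621 and 0.317 CPM in Sham and at 17.0, 23.1, 37.1 and 51.0 CPM in MI_soft, a rise of 6.12 ± 0.47 (adjusted p = 2.92e-07). Angptl7, a secreted angiopoietin-like protein, rose by 8.43 ± 1.07 from at most 0.159 CPM to 15.4 to 51.5 CPM. Slc13a3, a dicarboxylate transporter and another of the 10 largest rises, was highest in MI_soft 4 at 42.4 CPM against 1.39 to 6.77 CPM, and its 654 counts against 3 in Sham gave a ratio of 199 with a counting interval of 67.8 to 967 (95%). Without MI_soft 4 its fitted difference went from 7.56 to 5.70 (adjusted p = 0.0329, edgeR). The Slc13a3 call was lost with limma-voom.

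Direct contrasts within the same fit tested where MI_soft differed from the other ligated hearts. Against MI 3 genes (0.0264% of those tested) were called in the edgeR quasi-likelihood test (Benjamini-Hochberg adjusted), and against MI_stiff 11 genes (0.0967%), while 1761 and 1631 genes had an unadjusted p under 0.05. The 3 genes lower than in MI were Mmrn1, a platelet and endothelial glycoprotein (-2.06, adjusted p = 0.0316), Cirbp, an RNA-binding protein induced by cold (-1.497, adjusted p = 0.0316), and Nck2, an adaptor of receptor signalling (-1.31), which was named after its values were seen. The Mmrn1 and Cirbp calls were each made in only 5 of the 16 refits that left out 1 library, with adjusted p up to 0.166. Mmrn1 rose against Sham (1.14 ± 0.33, adjusted p = 0.0156), from 5.63 to 10.6 CPM to 9.19 to 24.9 CPM with MI_soft 4 inside the Sham range. That call was lost without Sham 4 or MI_soft 2 (adjusted p up to 0.0621). Cirbp was lower than in Sham in each library, at 13.7 to 20.4 against 23.5 to 28.0 CPM, but did not pass (-0.62, adjusted p = 0.0554).

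Against MI_stiff, the named genes lower in MI_soft included the clock activators Arntl (-2.87, adjusted p = 0.00336) and Npas2 (-2.82, adjusted p = 0.00833), the receptor gene Aplnr (-2.07, adjusted p = 0.00273) and Ucp3 (-2.20, adjusted p = 0.00273) by the edgeR test. All 4 were called in each of the 16 refits without 1 library, with adjusted p up to 0.0421 for Npas2 and 0.0195 for the other 3. Dbp was higher (4.11, adjusted p = 0.0209) and was called in 12 of the 16 refits. The part of the hour of collection in the Arntl, Npas2 and Dbp results was not tested. Ccl19 (2.64, adjusted p = 0.0276), the stress factor Atf3 (-1.84, adjusted p = 0.0275) and Ighe (7.80, adjusted p = 0.0354) were called in 9, 9 and 5 of the 16 refits, with adjusted p up to 0.123, 0.107 and 0.148. No member of the calcium handling, contractile or channel lists was called against MI or MI_stiff at this depth and spread. Only 0.0264% and 0.0967% of all tested genes were called there, so this is not a result particular to those lists. These contrasts share the MI_soft libraries with the comparison against Sham.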

How the data were processed

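The authors deposited RSEM expected counts (estimated reads per gene) and TPM (scaled for gene length and depth) for 16 rat heart libraries, 4 per group, with groups and numbers taken from the labels. Per the labels' protocols, total RNA was DNase-treated, mRNA was purified and NEBNext Ultra libraries were sequenced. Per the submitters' processing notes, STAR 2.7.3a, RSEM 1.3.1 and genome build rn7 were used. The sources used here do not give the annotation or strand setting, so antisense and overlapping genes cannot be separated. The 0.785% of expected counts that were not whole were rounded. Counts equal to another gene's in every library make 483 tested genes uncertain.

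Counts were tested in R 4.3.3 with edgeR 4.0.16 (default expression filter, TMM factors, robust quasi-likelihood fit of all 16 libraries, 1 coefficient per group, Benjamini-Hochberg adjustment over all tested genes, adjusted p under 0.05). CPM use the TMM factors, and values are mean ± SD or per library. The biological coefficient of variation was 0.403. In simulated counts (11143 genes) the test recovered 24.5% of 2-fold and 69.1% of 4-fold changes, with 1 false call in 92. Far fewer genes were changed in that simulation than the 2965 called here. Its shares therefore do not tell how many real changes this comparison missed. Alternatives used limma 3.58.1, DESeq2 1.42.0, other scalings, filters, TPM (pseudocount 0.5) and left-out libraries. The check of replicate numbers found no pairing.

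Genes and the 57 lists (852 tested entries) were chosen with earlier results of these data known. Named genes are the 10 largest rises and falls at 10 CPM or more without overlap, the 5 largest each way in TPM, up to 3 called members each way and the highest uncalled member of each list, fixed anchors, and the 5 of these with the smallest adjusted p against MI and against MI_stiff. Other list members named were chosen after their values were seen. Acta2, Pecam1 and Myh11 were not analysed here. Promoter windows came from RefSeq (GRCr8), matched by symbol. A few list members are not reported by name here.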

Additional observations from a re-analysis of the deposited data

Results flagged for a closer look

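Among 94 groups of 4 libraries (47 genes in MI_soft and in Sham), 5 had 1 library far from the other 3 by Dixon's criterion for 4 values. Chance gives such a gap in about 1 in 20 groups. Mmp12, macrophage elastase, had a log2 CPM of 8.05 in MI_soft 2 against 6.04 to 6.16 in the other 3. Slc13a3 was at -2.69 in Sham 2, which had no count, against -2.11 to -2.10. Gpr22 was at 7.79 in Sham 2 against 5.98 to 6.28. Mitf, a transcription factor of muscle and macrophages, was at -2.69 in MI_soft 4, which had no count, against 0.74 to 1.34. Nppb was at 6.71 in Sham 4 against 7.61 to 7.69.

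Differences between MI_soft and another group of ligated hearts that passed the direct test by edgeR with Benjamini-Hochberg adjustment are listed next. They cover only genes named by the rules above, not all 11 genes called against MI_stiff or all 3 against MI. Against MI_stiff they were 7.80 for Ighe, 2.64 for Ccl19 and 4.11 for Dbp (higher in MI_soft), and -2.82 for Npas2, -2.20 for Ucp3, -2.87 for Arntl, -2.07 for Aplnr and -1.84 for Atf3 (lower). Against MI they were -2.06 for Mmrn1 and -1.497 for Cirbp.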

How the results depend on the processing

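No call shared between a setting and the result as reported changed direction, and none of the 249 named genes reversed. Against 2965 calls (1860 higher, 1105 lower), library quality weights gave 6119 (3133 higher, 2986 lower), and limma on log2(TPM + 0.5) gave 623 lower. The cause was not tested. Leaving out 1 library gave 2155 to 2858 calls, 1406 to 1807 higher and 705 to 1080 lower, with fewest lower without MI_soft 2 (705) and Sham 2 (726). Without MI_soft 4 it was 2778, and 10 named genes lost and 15 gained a call. DESeq2 gave 3584, the 8 libraries alone 3624 and RLE scaling 3025. With the replicate number as a block 2568 genes were called (1601 higher, 967 lower); same-numbered libraries correlated at 0.117, 0.0213, -0.274 and -0.221, and 0 of 4 correlated best with its own number. Folds of genes with few counts carry wide intervals.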
